A study of Arabidopsis thaliana with 12 samples.

Results

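The ethylene response of ein2 seedlings was compared with that of wild type by an interaction contrast, the difference between ethylene and air in ein2 minus the same difference in wild type. It was computed for all 22746 probe sets from 8 of the 12 arrays of the study: 2 each of ein2 on ethylene, ein2 in air, wild type on ethylene and wild type in air. The other 4 arrays, of ein5 on ethylene and in air, helped to estimate the spread. A positive difference means that the ein2 response lay above the wild-type response, and a negative one that it lay below. All values called changes or differences of responses are on the log2 scale with their standard error, and levels are scaled intensities of single arrays. Calls were made by limma where the Benjamini-Hochberg p, adjusted over all probe sets, lay under 0.05.

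The seedlings were Arabidopsis thaliana of the Columbia accession (Col-0), grown in the dark, and the mutants carried the alleles ein2-5 and ein5-1. Ethylene was given at 10 ppm for 4 h, and the other seedlings stayed in hydrocarbon-free air. Growth lasted 5 days at 25 °C in 11 of the sample texts, but 3 days at 24 °C in the text of ein2 air 1 and in that of the series, and the extraction protocol names mature leaves where all other labels name seedlings. Nothing in the labels makes the 2 arrays of a group separate cultures. The p-values therefore reflect the spread of these arrays alone, and that spread may be technical. The mutated genes EIN2 and EIN5 were not analysed here, so the genotype labels could not be checked on them.

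Ethylene is sensed by receptors in the endoplasmic reticulum that, without the hormone, keep the kinase CTR1 active, and CTR1 in turn keeps the membrane protein EIN2 phosphorylated and inactive. When ethylene binds, EIN2 is cleaved, and its C-terminal part promotes the accumulation of EIN3, the transcription factor that starts the transcriptional response. Seedlings that lack EIN2 fail to show the short, thick hypocotyl and exaggerated hook that ethylene gives wild-type seedlings in the dark. The contrast asks which transcript responses to ethylene differ when EIN2 is defective, and which do not.

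The ein2 response differed from the wild-type response at 854 probe sets, 3.75% of those tested. Of these, 638 (2.8%) were positive and 216 (0.95%) negative. The positive ones were mostly transcripts that ethylene lowered in wild type: 573 of the 638 were called lower on ethylene there, and their median change was 0.121 in ein2 and -0.967 in wild type. The negative ones were mostly transcripts that ethylene raised in wild type, 181 of 216 by a call, with a median change of -0.215 in ein2 and 0.756 in wild type. Because the wild-type response is a term of the contrast, these counts describe how the difference is made up and are no separate evidence. In bulk samples such as these, fewer cells of a type and less RNA per cell cannot be told apart.

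For each of the 854 probe sets, the 4 array differences between ethylene and air in ein2 did not overlap the 4 in wild type, which was also true of 16.1% of all probe sets in the positive direction and 12.8% in the negative. Differences of more than 1 log2 unit were found at 383 positive and 98 negative probe sets, and differences of more than 2 units at 70 and 13. Over all probe sets the median difference was 0.013, and 51.1% of the differences were positive. At an unadjusted p under 0.05, 2326 of the 22746 differences were positive and 1493 negative (limma). The unadjusted counts given below for gene lists are to be read beside these. The deposited values already had a nearly common scale, as described under the processing. Taken without rescaling, they gave 534 positive and 306 negative calls, so the share of positive calls was 63.6% there, against 74.7% after rescaling.

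**Figure D1:**
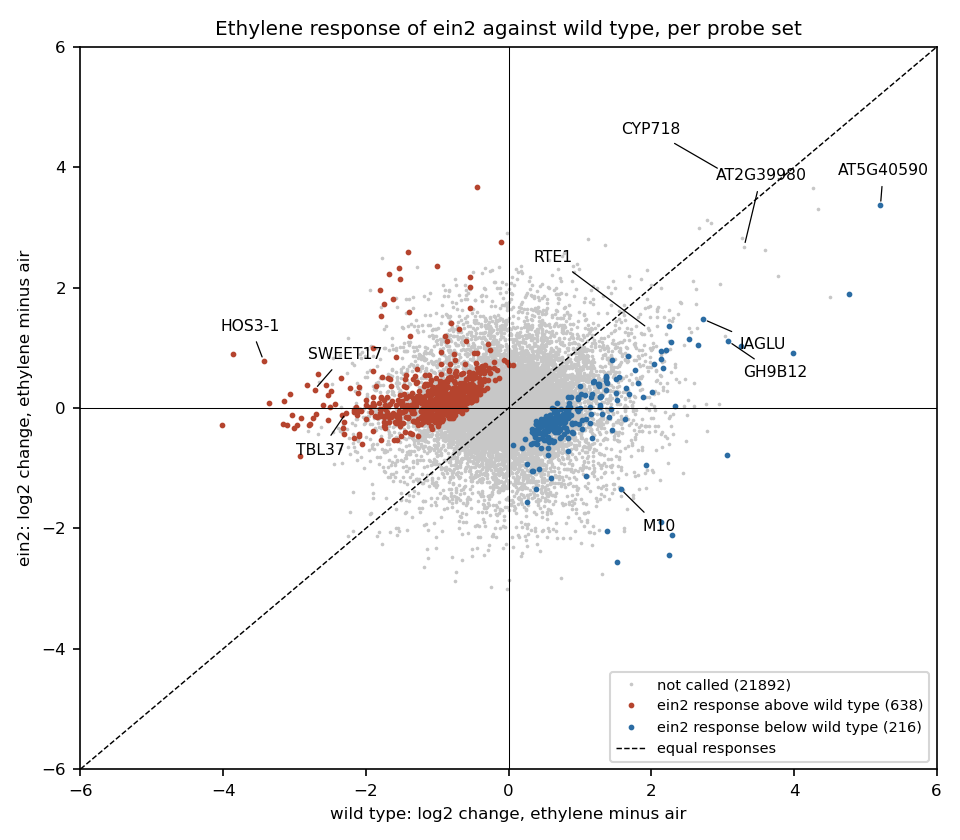
Change on ethylene relative to air in ein2 (vertical axis, log2) against that in wild type (horizontal axis, log2), 1 point per probe set, with the 638 positive and 216 negative calls of the difference in colour and equal responses on the dashed line. The positive calls lie above that line, mostly left of 0 where wild type fell, and the negative calls lie below it, mostly right of 0.

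In ein2 itself ethylene had few called effects. Calls of a higher level on ethylene were made for 108 probe sets (0.475%) in ein2 and calls of a lower level for 9 (0.0396%), against 3.82% and 6.28% in wild type. At an unadjusted p under 0.05 the ein2 counts were 1369 higher and 895 lower. Within ethylene, ein2 lay above wild type by a call at 515 of the 638 positive probe sets and below it at 156 of the 216 negative ones, against 6.4% and 3.47% of all probe sets. In air, ein2 was called below wild type at 85 of the 638 and above it at 25, against 1.47% and 1.24% of all probe sets. These comparisons share arrays with the contrast.

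The calls rested on few arrays. With 1 of the 4 ein2 arrays left out, 270 to 340 positive and 52 to 98 negative probe sets were called: 333 and 70 without ein2 air 1, 284 and 52 without ein2 air 2, 340 and 98 without ein2 ethylene 1, and 270 and 62 without ein2 ethylene 2. Without wild-type ethylene 2, which correlated least with the arrays of other groups (mean r = 0.947), 974 positive and 200 negative probe sets were called. The 2 wild-type ethylene arrays correlated with each other at r = 0.960, the lowest value between replicates in the 6 groups. Without wild-type air 1 the negative calls numbered 138. The arrays of ein2 differed from their replicates by a median of 0.19 log2 units on ethylene and in air, against 0.32 for wild type on ethylene and 0.25 for wild type in air.

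**Figure D2:**
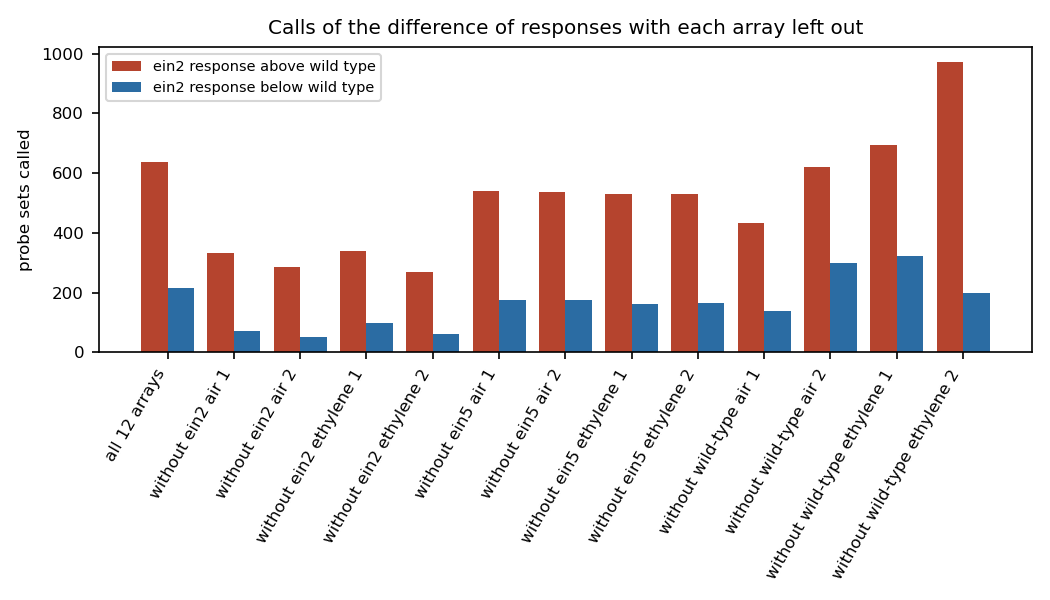
Number of probe sets called positive and negative with all 12 arrays and with each array left out in turn. The positive counts lie between 270 and 974 and the negative counts between 52 and 321.

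The gene with the largest positive difference among those that carry a symbol was HOS3-1. Its levels were 912 and 914 in ein2 on ethylene and 538 and 509 in ein2 in air, against 140.1 and 44.1 in wild type on ethylene and 1183 and 897 in wild type in air. Both wild-type ethylene arrays lay below all 6 others. HOS3-1 fell by 3.43 ± 0.37 in wild type, and its change in ein2 was 0.78 ± 0.37 (adjusted p = 0.517), a difference of responses of 4.22 ± 0.53, adjusted p = 0.000575 (limma).

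SWEET17, which encodes a fructose transporter of the vacuole membrane, had levels of 4260.5 and 4491 in ein2 on ethylene and 3393 and 3673 in ein2 in air, against 1056 and 600 in wild type on ethylene and 6334 and 4486 in wild type in air. Only the 2 wild-type ethylene arrays were low. The difference of responses was 3.03 ± 0.31, adjusted p = 0.000102 (limma). SWEET16, a close relative that also encodes a sugar transporter of the vacuole membrane, differed in the same direction by 1.33 ± 0.25 (adjusted p = 0.00838), with levels of 3229 and 3082 in ein2 on ethylene and 2248 and 2139 in ein2 in air, against 1680.2 and 1699.7 in wild type on ethylene and 3414 and 2584 in wild type in air. Of 17 measured sugar transporter genes, these 2 were called positive and 1 negative, against 2.32% and 0.779% of 13350 genes with 1 probe set each, and the list's median difference was 0.0505, against 0.00936 over those genes. The negative one, SWEET14, was dim, with levels of 22.5 and 31.5 in ein2 on ethylene and 134 and 153 in ein2 in air, against 98 and 229 in wild type on ethylene and 14.7 and 31.6 in wild type in air. Its difference of -4.02 ± 0.78 was called at adjusted p = 0.0103, and at adjusted p = 0.0529 without ein2 air 2 it was not. Of the wild-type air levels 1 lay under the offset, and the difference ran from -4.84 to -2.52 over the alternatives. The sugar porter gene SFP1 differed by 1.22 ± 0.19, adjusted p = 0.00286, and OCT1, which encodes a carnitine and organic cation transporter, by 1.53 ± 0.23, adjusted p = 0.00218.

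Genes of the cell wall were among those that fell in wild type with no called change in ein2. TBL37, of the family whose members transfer acetyl groups to wall polysaccharides, had 6925 and 7369.5 in ein2 on ethylene and 7244 and 7852 in ein2 in air, against 1986 and 2260 in wild type on ethylene and 9648 and 11045 in wild type in air. PME61, which encodes a pectin methylesterase, an enzyme that removes methyl groups from pectin, had 3361 and 3624 in ein2 on ethylene and 2680.2 and 2747 in ein2 in air, against 928 and 1099 in wild type on ethylene and 3910.5 and 2636 in wild type in air. For both genes the 2 wild-type ethylene arrays lay below the 6 others. The difference of responses was 2.20 ± 0.16 for TBL37, adjusted p = 5.73e-06, and 2.01 ± 0.24 for PME61, adjusted p = 0.000396 (limma).

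Expansins loosen the wall so that cells can extend. Of 19 measured expansin and expansin-like genes, 4 were called positive and 0 negative (limma). At an unadjusted p under 0.05 there were 7 and 0, against 2326 and 1493 of all 22746 probe sets. The list's median difference was 0.292, against 0.00936 over all genes, of which 2.32% were called positive and 0.779% negative. EXPA8, among the brightest, had 23319 and 25277 in ein2 on ethylene and 22156 and 21922 in ein2 in air, against 7514 and 10105 in wild type on ethylene and 21191 and 18606 in wild type in air. Its wild-type ethylene arrays were the lowest 2, and the responses differed by 1.33 ± 0.20, adjusted p = 0.00214. EXPB1 differed by 1.44 ± 0.26, adjusted p = 0.00644, with means of 6309 ± 554 in ein2 on ethylene and 6567 ± 408 in ein2 in air, against 1809.9 ± 520.3 in wild type on ethylene and 5100.2 ± 1249 in wild type in air (SD, n = 2 each). EXLA2 and EXPA15 differed by 0.89 ± 0.18 and 0.79 ± 0.20. EXPA15 also stood higher in ein2 than in wild type in air, by 0.81 ± 0.14, adjusted p = 0.00725. The root-hair expansin EXPA7 went the other way in wild type: it rose on ethylene there by 0.81 ± 0.22, adjusted p = 0.0304, and its change in ein2 was 0.79 ± 0.22 (adjusted p = 0.177). The 95% interval of the difference, -0.69 to 0.65, holds 0.

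Over a wider set of 91 cell wall genes with a symbol, a set put together after the called genes had been seen, 7 were called positive and 1 negative, against 2.32% and 0.779% of all genes, and the median difference was 0.207. At an unadjusted p under 0.05 (limma) there were 22 positive and 2 negative. By calls, ethylene raised 9 and lowered 15 of the 91 in wild type, against 3.82% and 6.28% of all probe sets. In ein2 it raised 2 and lowered 0, against 0.475% and 0.0396%. Of the 7 called positive in the contrast, EXPA8, EXPB1, PME61 and TBL37 were called with each array left out. Without the variance trend 3 of the 91 were called positive, and EXPB1, with an adjusted p of 0.1, was not among them. EXLA2, EXPA15 and GH9B8 were not, with adjusted p up to 0.0961 without ein2 ethylene 2, 0.183 without ein2 ethylene 1 and 0.188 without ein2 air 2. Of 10 genes of the xyloglucan endotransglucosylase family, whose enzymes cut and rejoin xyloglucan chains, 0 were called (limma), and 4 had a positive and 0 a negative difference at an unadjusted p under 0.05. Of all 22746 probe sets, 2326 had a positive and 1493 a negative difference at that p. The median of the 10 genes was 0.385.

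The 1 negative cell wall gene was GH9B12, of glycosyl hydrolase family 9, whose members cut cellulose-like chains. It had 661 and 651 in ein2 on ethylene and 391 and 222 in ein2 in air, against 2987 and 3622 in wild type on ethylene and 376 and 373 in wild type in air. The wild-type ethylene arrays stood far above all others. GH9B12 rose by 3.08 ± 0.25 in wild type, while the change in ein2 was 1.11 ± 0.25 (adjusted p = 0.0906), a difference of -1.97 ± 0.36, adjusted p = 0.0071 (limma).

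**Figure D3:**
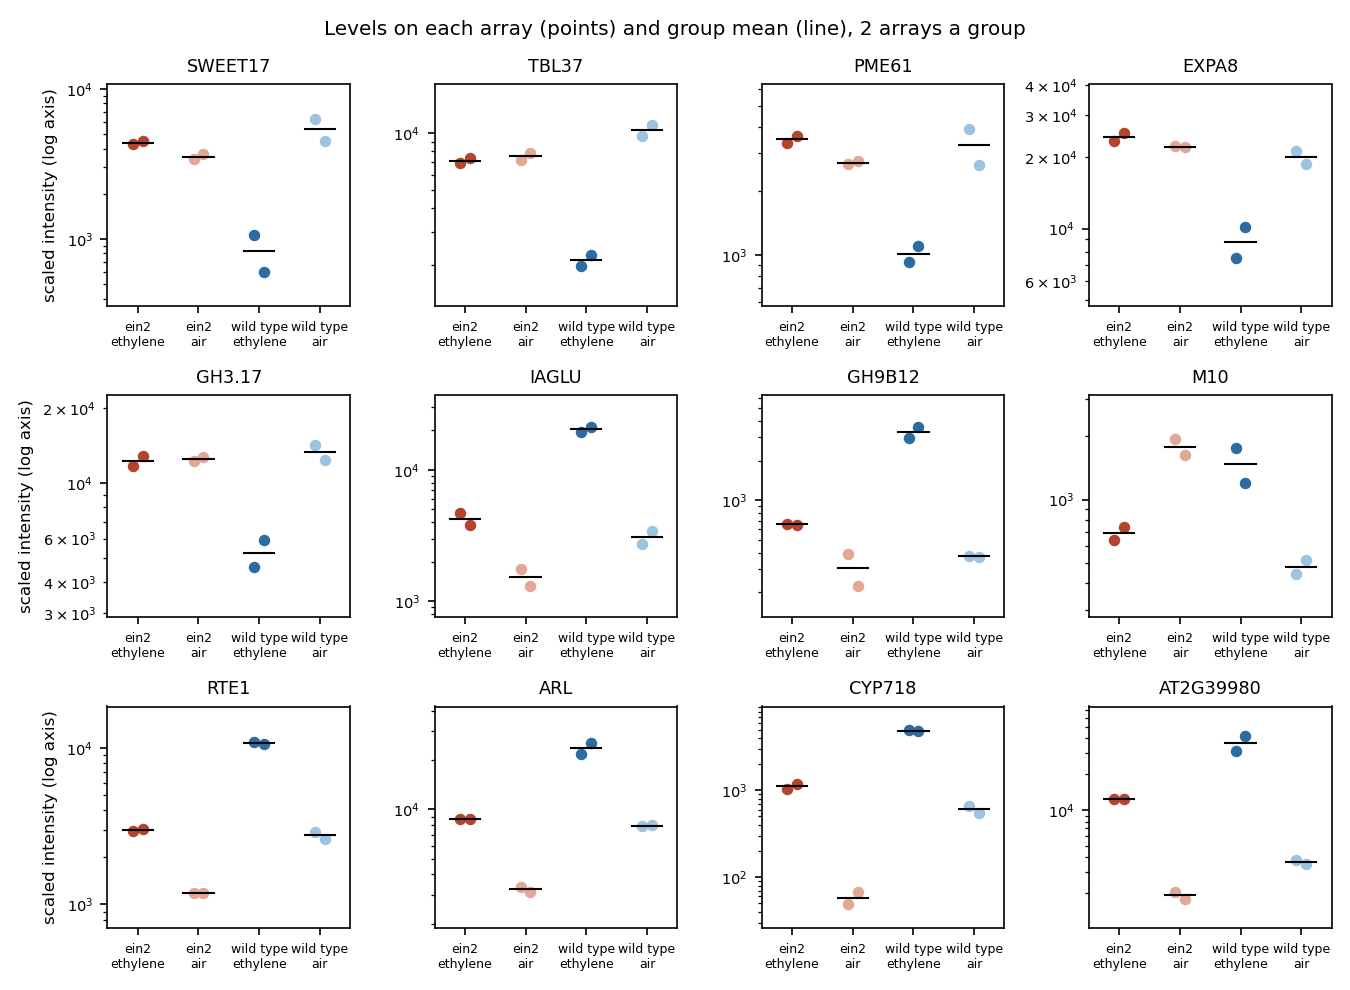
Scaled intensity (log axis) on each array of 12 genes in ein2 on ethylene, ein2 in air, wild type on ethylene and wild type in air, with points for arrays and lines for group means. In the first 5 panels the wild-type ethylene points are the lowest, while in those of IAGLU, GH9B12, RTE1, ARL, CYP718 and AT2G39980 they are the highest.

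Genes of auxin metabolism differed in both directions. GH3.17 encodes an enzyme that joins the auxin indole-3-acetic acid to glutamate, and IAGLU encodes an enzyme that joins it to glucose. GH3.17 had 11795 and 12862 in ein2 on ethylene and 12347 and 12707 in ein2 in air, against 4592 and 5937 in wild type on ethylene and 14212 and 12413 in wild type in air. IAGLU had 4684 and 3800 in ein2 on ethylene and 1745 and 1302 in ein2 in air, against 19566 and 21316 in wild type on ethylene and 2723 and 3439 in wild type in air. Thus GH3.17 was low and IAGLU high on the 2 wild-type ethylene arrays, with no overlap with the other 6. The difference of responses was 1.32 ± 0.20 for GH3.17, adjusted p = 0.00218, and -1.26 ± 0.23 for IAGLU, adjusted p = 0.0071 (limma). IAGLU still rose in ein2, by 1.47 ± 0.16, adjusted p = 0.000407, and without ein2 ethylene 2 its difference had an adjusted p of 0.0537.

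IAA20, which encodes an Aux/IAA protein that represses auxin-responsive transcription, had 1104 and 1195 in ein2 on ethylene and 681 and 926 in ein2 in air, against 3626 and 3255 in wild type on ethylene and 1006 and 1335 in wild type in air. Its difference of -1.03 ± 0.26 was called at adjusted p = 0.0461. That call was lost when any of 10 single arrays was left out, with adjusted p up to 0.188 without ein2 air 2. These 3 were the called genes, 1 positive and 2 negative, among 22 auxin genes with a symbol, a list put together after the called genes had been seen. Over all genes, 2.32% were called positive and 0.779% negative. The list's median difference was 0.105.

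UDP-glycosyltransferases attach sugars to hormones and secondary metabolites. Of 50 measured genes named as such, 5 were called positive and 1, IAGLU, negative, against 2.32% and 0.779% of all genes, and the median difference was 0.26. This list was put together after the called genes had been seen. Ethylene lowered 11 and raised 3 of the 50 in wild type by a call, against 6.28% and 3.82% of all probe sets. In ein2 it raised 1, IAGLU, against 0.475% of all probe sets. UGT71C1, whose enzyme glucosylates flavonoids and other phenolics, had 3903 and 3749.5 in ein2 on ethylene and 4192 and 4532 in ein2 in air, against 2656 and 2432 in wild type on ethylene and 6605 and 8227 in wild type in air. All 4 ein2 arrays lay between the wild-type ethylene and the wild-type air arrays. The responses differed by 1.34 ± 0.24, adjusted p = 0.00561, and in air ein2 differed from wild type by -0.76 ± 0.17 (adjusted p = 0.026). UGT72E3, which acts on lignin precursors, differed by 1.50 ± 0.34, UGT76B1 by 1.16 ± 0.26, UGT84A4 by 1.11 ± 0.26 and GT72B1 by 0.81 ± 0.17. Without the variance trend each of the 5 lost the call, UGT71C1 with an adjusted p of 0.0896. Of the 5, UGT71C1 was called with each array left out. The other 4 lost the call with at least 1 ein2 array left out, with adjusted p up to 0.129, that of UGT84A4 without ein2 air 2.

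The remaining positive genes with a symbol cover several roles. MSRB9, which encodes a methionine sulfoxide reductase that repairs oxidised methionine, was the brightest gene of the group. It had 53668 and 57913 in ein2 on ethylene and 52776 and 53838 in ein2 in air, against 17964 and 23990 in wild type on ethylene and 46977 and 48296 in wild type in air. The wild-type ethylene arrays were the lowest 2, and the difference was 1.26 ± 0.23, adjusted p = 0.00736 (0.0519 without ein2 ethylene 2). GSTU26, a glutathione transferase gene, differed by 1.14 ± 0.20, HHP2, which encodes a heptahelical membrane protein, by 1.44 ± 0.21, and the ubiquitin ligase gene PUB19 by 0.95 ± 0.18. WSD1, whose enzyme makes wax esters, differed by 1.51 ± 0.34, CML42, which encodes a calmodulin-like calcium sensor, by 1.16 ± 0.23, and GTR1, which encodes a glucosinolate transporter, by 0.86 ± 0.20. PUB19, WSD1, CML42 and GTR1 lost the call without at least 1 ein2 array, with adjusted p up to 0.118, that of GTR1 without ein2 air 1. In CML42, HHP2 and SWEET16 the 2 ein2 ethylene arrays lay above the 2 ein2 air arrays while wild type fell, yet none of these ein2 changes was called (adjusted p = 0.174, 0.103 and 0.284).

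In all, 58 genes with a symbol were called, 36 positive and 22 negative, which is 3.74% of the 1551 such probe sets. Naming every one of them was decided after their values were seen. Of the 36 positive genes, 14 were called with each of the 12 arrays left out, and of the 22 negative genes 2 were, M10 and GH9B12.

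**Figure D4:**
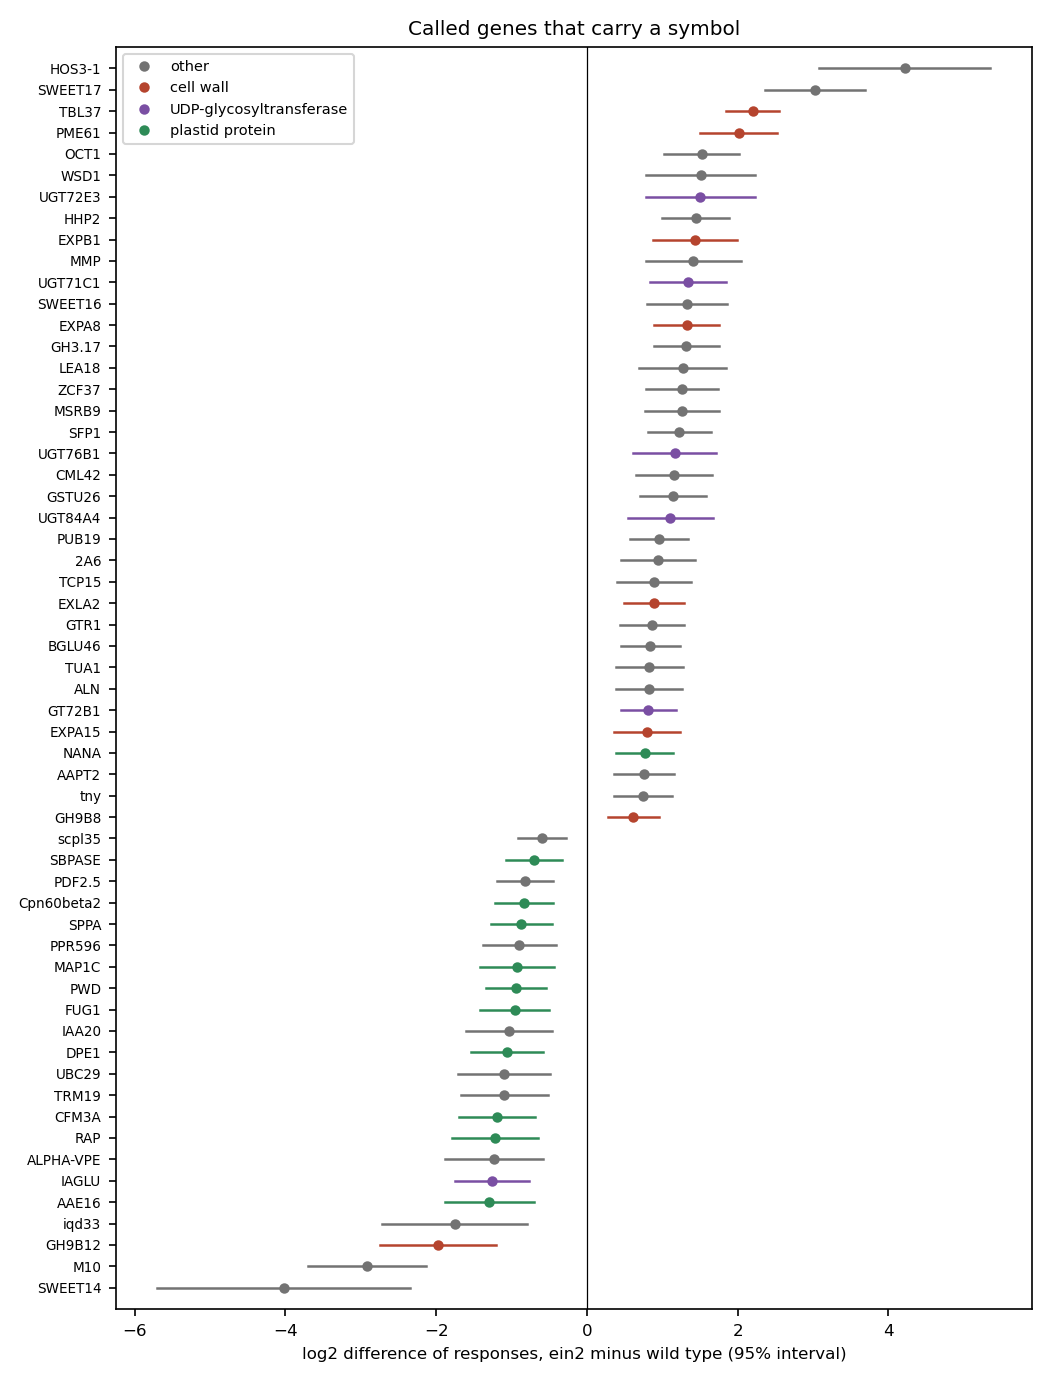
Difference of responses (ein2 minus wild type, log2, horizontal axis) with its 95% interval for the 58 called genes that carry a symbol, coloured by the set they belong to. The values run from -4.02 for SWEET14 to 4.22 for HOS3-1, and all plastid protein genes except NANA lie below 0.

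Genes known only by locus number, for which no role is given, held the other large positive differences. AT5G13900 had 4508 and 4799 in ein2 on ethylene and 4385 and 4415 in ein2 in air, against 463 and 369.9 in wild type on ethylene and 4776 and 4006 in wild type in air. AT1G75900 had 10586 and 10786 in ein2 on ethylene and 11350 and 11687 in ein2 in air, against 1506 and 1515 in wild type on ethylene and 13827 and 11327 in wild type in air. In both, ein2 on ethylene stayed close to the level that both genotypes had in air. The differences were 3.43 ± 0.20 for AT5G13900 and 2.93 ± 0.17 for AT1G75900, and their adjusted p of 9.61e-07 was the lowest among the genes named here.

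AT2G43390, at lower levels, had 509.8 and 538 in ein2 on ethylene and 398 and 185 in ein2 in air, against 6.34 and 17.9 in wild type on ethylene and 442 and 333 in wild type in air. The wild-type ethylene levels lay near or under the offset of 16 that was added before taking log2, so the size of the difference depends on the offset, and over the alternatives tried it ran from 3.36 to 5.62. AT1G29660 fell by 3.01 ± 0.14 in wild type and stood higher in ein2 than in wild type already in air, by 1.17 ± 0.14, adjusted p = 0.000256. Of the 20 genes with the largest positive differences, 18 were called with each array left out. The exceptions were AT5G62420, with adjusted p = 0.0642 without ein2 air 2, and AT3G22060, with adjusted p = 0.148 without ein2 ethylene 2.

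Late embryogenesis abundant (LEA) proteins protect dehydrating cells and accumulate in seeds. LEA18 and M10, both LEA genes, differed in opposite directions. LEA18 had 10862 and 11217 in ein2 on ethylene and 13700 and 10848 in ein2 in air, against 1416 and 1093 in wild type on ethylene and 2791 and 4001 in wild type in air. All 4 ein2 arrays lay above all 4 wild-type arrays, by 1.86 ± 0.19 in air (adjusted p = 8.13e-05), and the difference of responses was 1.27 ± 0.27, adjusted p = 0.0177. Without ein2 air 2 its adjusted p was 0.102. Of 7 measured LEA genes in the family list, LEA18 was the 1 called positive and 0 were negative (limma), with a median of 0.741. At an unadjusted p under 0.05 there were 3 positive and 0 negative, against 2326 and 1493 of all 22746 probe sets. A list of 12 seed and cold genes, added after the called genes had been seen, held both LEA18 and M10 as its calls, with a median of -0.0721.

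M10 had 641 and 739.6 in ein2 on ethylene and 1933 and 1636 in ein2 in air, against 1764 and 1196 in wild type on ethylene and 445 and 513 in wild type in air. On ethylene M10 thus fell by 1.35 ± 0.26 in ein2 (adjusted p = 0.0345), and rose by 1.57 ± 0.26 in wild type (adjusted p = 0.00116). The 2 groups with high values did not overlap the 2 with low values. The difference of -2.92 ± 0.37, adjusted p = 0.000575, was the largest negative one among named genes with a mean of at least 500 in any of the 4 groups. In air, M10 stood higher in ein2 than in wild type by 1.86 ± 0.26, adjusted p = 0.00142. The summed level of the seed-storage marker genes OLEO3 and PAP85 was 7662.8 and 9977 in ein2 on ethylene and 7975.6 and 8199 in ein2 in air, against 9613.6 and 10376 in wild type on ethylene and 5832.6 and 6150.6 in wild type in air. Over the 12 arrays OLEO3 ran from 5640 to 9983 and PAP85 from 193 to 2312, so the sum was mostly OLEO3. Ethylene raised 1 of the 2 markers in wild type by a call, against 3.82% of all probe sets (limma). Neither was called in the contrast, and 1 had a negative difference at an unadjusted p under 0.05. Neither marker was at 0 on any array, and their part in the LEA results was not tested.

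Some other genes responded to ethylene in ein2 in the opposite direction to wild type. Both responses were called, with opposite signs, at 7 of the 638 positive and 2 of the 216 negative probe sets. AT4G05150 had 12223 and 14697 in ein2 on ethylene and 6069 and 6231 in ein2 in air, against 8001 and 10932 in wild type on ethylene and 12674 and 15777 in wild type in air. The ein2 air arrays were the lowest 2, and the ein2 ethylene arrays lay close to the wild-type air arrays. AT4G05150 rose in ein2 by 1.12 ± 0.16 (adjusted p = 0.0041) and fell by 0.60 ± 0.16 in wild type (adjusted p = 0.0312), a difference of 1.72 ± 0.23.

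AT1G33470 had 1166 and 1126 in ein2 on ethylene and 646 and 371 in ein2 in air, against 591 and 549 in wild type on ethylene and 1486 and 1522 in wild type in air. AT1G33470, AT3G06750 and AT3G61790 rose in ein2 and fell in wild type by calls, with differences of 2.57 ± 0.32, 1.08 ± 0.16 and 0.97 ± 0.14. AT3G16740 and AT5G54530 rose in ein2, by 1.31 ± 0.22 and 0.70 ± 0.14, with no called change in wild type (adjusted p = 0.0623 and 0.109). The dim locus AT4G10440 was called lower on ethylene in ein2, with levels of 15.6 and 9.31 in ein2 on ethylene and 109.8 and 202 in ein2 in air, against 171 and 299 in wild type on ethylene and 58.5 and 79.1 in wild type in air. Both ein2 ethylene levels lay under the offset of 16, so no size is given for that fall, and the difference of responses ran from -4.92 to -2.63 over the alternatives. In AT1G33470, AT4G05150, AT3G61790 and AT3G16740 ein2 was also called lower than wild type in air, with differences from -1.59 to -0.52, and the ein2 air arrays enter both differences.

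Some transcripts with large wild-type rises also rose in ein2, but by less. AT5G40590 had 1645 and 1671 in ein2 on ethylene and 140.4 and 152 in ein2 in air, against 8801 and 8953 in wild type on ethylene and 195 and 256 in wild type in air. It rose by 3.37 ± 0.22 in ein2 and by 5.21 ± 0.22 in wild type, and the difference was -1.84 ± 0.31, adjusted p = 0.0044 (limma). AT1G50110 likewise rose in both, by 1.03 ± 0.19 in ein2 and 3.26 ± 0.19 in wild type, a difference of -2.23 ± 0.26. Both responses were called rises at 12 of the 216 negative probe sets.

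AT5G64120, which encodes peroxidase 71, had 8159 and 8419.6 in ein2 on ethylene and 7012 and 7020 in ein2 in air, against 15724 and 18554 in wild type on ethylene and 5246 and 5339.6 in wild type in air. The wild-type ethylene arrays were the highest 2. The change in ein2 was 0.24 ± 0.11 (adjusted p = 0.517) and the difference of responses -1.45 ± 0.16, adjusted p = 0.000234. Among 7 measured genes matched as class III peroxidases by symbol or synonym, it was the 1 negative call, with 0 positive calls (limma). Over all genes, 0.779% were called negative and 2.32% positive. At an unadjusted p under 0.05 there were 1 positive and 1 negative of the 7, against 2326 and 1493 of all 22746 probe sets. Members of the family without such a name may be missing from this list. PDF2.5, a plant defensin gene, rose by 0.86 ± 0.12 in ein2 and by 1.68 ± 0.12 in wild type, a difference of -0.82 ± 0.18, adjusted p = 0.0181 (adjusted p = 0.1 without ein2 ethylene 2). ALPHA-VPE, which encodes a vacuolar processing enzyme, had 613 and 598 in ein2 on ethylene and 516 and 653 in ein2 in air, against 1491 and 1806 in wild type on ethylene and 701 and 627 in wild type in air, a difference of -1.23 ± 0.30. Its adjusted p was 0.0394, and 0.156 without ein2 air 2. Of the 15 genes with the largest negative differences, 9 were called with each array left out.

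Nuclear genes of plastid proteins were called mainly in the negative direction. Of 100 such genes, a list put together after the called genes had been seen, 10 were called negative and 1 positive, against 0.779% and 2.32% of all genes, and the median difference was -0.453. Their median change on ethylene was -0.112 in ein2 and 0.288 in wild type. By calls, ethylene raised 1 and lowered 1 of them in ein2, against 0.475% and 0.0396% of all probe sets. In wild type it raised 19 and lowered 3, against 3.82% and 6.28% of all probe sets. At an unadjusted p under 0.05 the difference was negative for 38 and positive for 5, against 1493 and 2326 of all 22746 probe sets (limma).

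The 10 negative genes span several plastid functions. PWD and DPE1 encode enzymes of starch breakdown, a phosphoglucan water dikinase and a glucanotransferase. PWD had 3102 and 2887 in ein2 on ethylene and 4308 and 4276 in ein2 in air, against 5034 and 3959 in wild type on ethylene and 3039.9 and 3660 in wild type in air, a difference of -0.94 ± 0.19, adjusted p = 0.0119. These values are of locus AT5G26570. A dimmer probe set with the same symbol, of locus AT4G24450, differed by 0.37 ± 0.62 and was not called (limma, adjusted p = 0.84). DPE1 had 1628 and 1636 in ein2 on ethylene and 2344 and 2401 in ein2 in air, against 2599 and 3152 in wild type on ethylene and 1713 and 2299 in wild type in air, a difference of -1.06 ± 0.23. For PWD (AT5G26570) and DPE1 the ein2 ethylene arrays lay below the ein2 air arrays, but neither ein2 change was called (limma, adjusted p = 0.137 and 0.222). The DPE1 arrays of wild type on ethylene lay above those of wild type in air.

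CFM3A, which encodes a protein needed for splicing of plastid introns, was the gene of this list that fell in ein2 by a call. It had 758 and 753 in ein2 on ethylene and 1461 and 1442 in ein2 in air, against 1213 and 1284 in wild type on ethylene and 961 and 1117 in wild type in air. It fell by 0.93 ± 0.17 in ein2, adjusted p = 0.023, while the wild-type change was 0.26 ± 0.17 (adjusted p = 0.408), a difference of -1.19 ± 0.24. FUG1, which encodes a translation initiation factor of plastids, differed by -0.96 ± 0.22, and RAP, needed for ribosomal RNA maturation in plastids, by -1.22 ± 0.26. SBPASE encodes sedoheptulose-bisphosphatase of the Calvin cycle and differed by -0.70 ± 0.17, and the chaperonin subunit gene Cpn60beta2 differed by -0.84 ± 0.18. The others were AAE16, an acyl-activating enzyme gene (-1.29 ± 0.28), the methionine aminopeptidase gene MAP1C (-0.93 ± 0.23) and the thylakoid protease gene SPPA (-0.87 ± 0.19). NANA, which encodes a chloroplast protease, was the 1 positive gene, at 0.77 ± 0.18.

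None of the 10 negative genes was called with each array left out. The count of negative calls in this list was 1 without ein2 air 2 or ein2 ethylene 2, 2 without ein2 air 1 or wild-type air 1 and 3 without ein2 ethylene 1, and it was 18 without wild-type air 2, 12 without wild-type ethylene 1 and 9 without wild-type ethylene 2. With the deposited values not rescaled it was 16. The summed level of 7 leaf photosynthesis markers was 82320 and 87497 in ein2 on ethylene and 90520 and 85979 in ein2 in air, against 90963 and 112490 in wild type on ethylene and 72884 and 92202 in wild type in air. Of these 7 markers, 0 were called in the contrast (limma), 3 had a negative and 1 a positive difference at an unadjusted p under 0.05, and none was at 0 on any array. The marker PRK is also a member of the plastid list. Their part in the plastid result was not tested. For the 69 probe sets of genes of the plastid genome the median difference was 0.317, with 0 called (limma). At an unadjusted p under 0.05 there were 6 positive and 3 negative, against 2326 and 1493 of all 22746 probe sets.

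**Figure D5:**
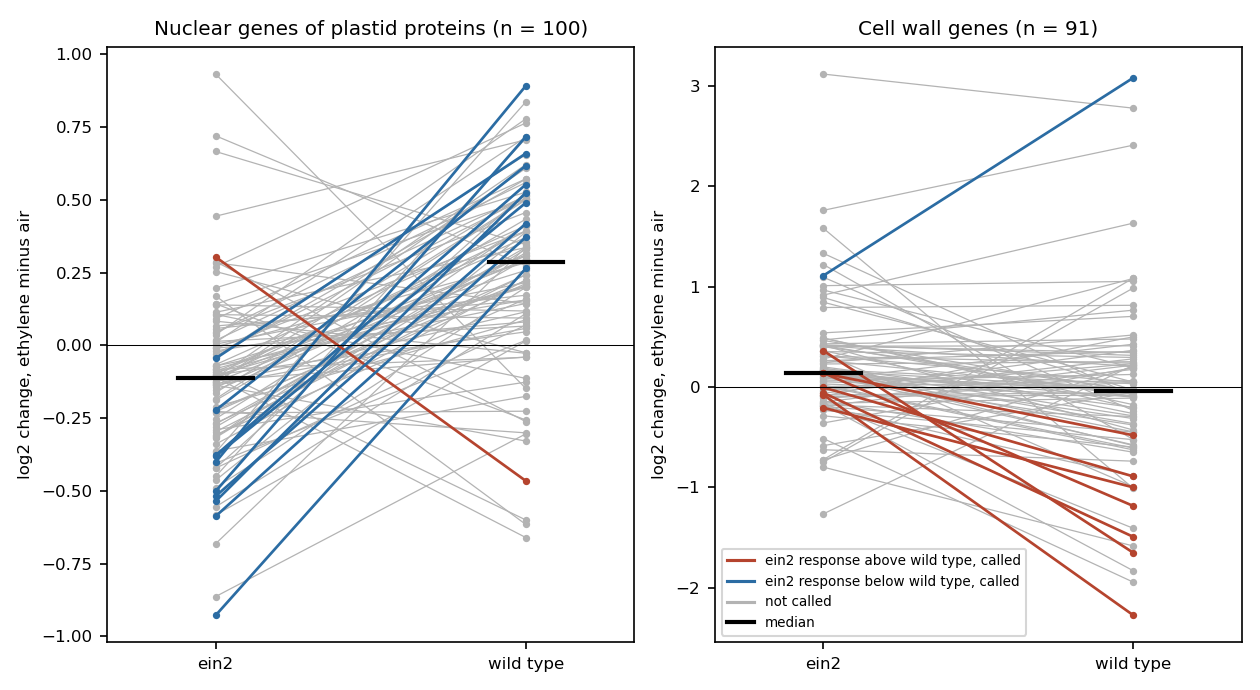
Change on ethylene relative to air (log2) in ein2 and in wild type, 1 line per gene, for 100 nuclear genes of plastid proteins and 91 cell wall genes, with called differences in colour and the median of each genotype as a black bar. The medians of the plastid protein genes are -0.112 in ein2 and 0.288 in wild type, and the called cell wall genes mostly slope down to wild type.

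Part of the ethylene response was present in ein2. Of the probe sets that ethylene raised, 74 were called in both genotypes, and 62 of these were not called in the contrast. The count of 74 depended on the settings. It was 22 without the variance trend, 47 with only the compared groups fitted, 63 with the deposited values not rescaled and 120 with array weights. Among the 74, the median rise was 1.16 in ein2 and 1.66 in wild type, and the difference was negative at 62, with a median of -0.458. The 95% interval of the difference held 0 at 38. A missed call does not show equal responses, and the intervals below give the sizes that the data allow. Of the probe sets that ethylene lowered, 1 was called in both genotypes, and it is unnamed here.

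The starting level of these transcripts was mostly lower in ein2. In air, the ein2 mean lay below the wild-type mean at 72 of the 74 and was called lower at 58, against 1.47% of all probe sets. On ethylene, ein2 was called lower at 71 of the 74, and its mean exceeded that of wild type in air at 60. The ein2 air arrays enter both the ein2 rise, by which these probe sets were chosen, and the comparison in air, so the 2 counts are not independent.

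CYP718, a cytochrome P450 gene, had 1045 and 1196 in ein2 on ethylene and 48.7 and 67 in ein2 in air, against 4877 and 4795 in wild type on ethylene and 660.3 and 546 in wild type in air. It rose by 3.95 ± 0.31 in ein2 and by 2.98 ± 0.31 in wild type, and the 95% interval of the difference was 0.02 to 1.92. In air ein2 differed from wild type by -3.07 ± 0.31, adjusted p = 7.97e-05. XTH26, a xyloglucan endotransglucosylase gene, had 264 and 214 in ein2 on ethylene and 14.6 and 11.9 in ein2 in air, against 1110.4 and 1474 in wild type on ethylene and 213 and 139.8 in wild type in air, with an interval of -0.97 to 1.65. Both its ein2 air levels lay under the offset of 16, so its ein2 rise and its difference depend on the offset. Over the alternatives the difference of XTH26 ran from -0.53 to 0.95. The 4 groups did not overlap in either gene, although for XTH26 the lower ein2 ethylene array and the higher wild-type air array were nearly equal.

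AT2G39980 had 12356 and 12438 in ein2 on ethylene and 2062 and 1780.1 in ein2 in air, against 31416 and 42268 in wild type on ethylene and 3832 and 3535 in wild type in air. It rose by 2.68 ± 0.14 in ein2 and 3.30 ± 0.14 in wild type, and the interval of the difference, -1.03 to -0.20, lay below 0 although the call was missed (adjusted p = 0.098). The same was true of AT5G19890 (-1.68 to -0.37), AT1G49570 (-1.57 to -0.37) and AT1G19900 (-1.54 to -0.13). Each of these 4 was called in 1 to 3 alternatives. For AT2G22880 (-0.52 to 1.19) and AT1G72290 (-1.27 to 0.31) the interval held 0.

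Genes of the ethylene pathway itself that could be named were few: RTE1, RTH, ETP2 and EIN3 of signalling, and RTE1, ARL, EXPA7 and PDF1.2 among genes known to respond. None was called in the contrast (limma), and at an unadjusted p under 0.05 there were 1 positive and 1 negative of the signalling genes and 2 negative of the responding genes. RTE1, which encodes a protein that promotes signalling by the receptor ETR1 and so restrains the response, had 2944 and 3016 in ein2 on ethylene and 1182 and 1179 in ein2 in air, against 10955 and 10551 in wild type on ethylene and 2912 and 2614 in wild type in air. It rose in ein2 by 1.32 ± 0.12 (adjusted p = 4.79e-05) and in wild type by 1.96 ± 0.12. The difference of -0.63 ± 0.17 had an adjusted p of 0.0532 and a 95% interval of -0.99 to -0.27. It was called in 4 of 21 alternatives, with adjusted p down to 0.0387. In air ein2 differed from wild type by -1.21 ± 0.12.

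ARL, a gene of the ARGOS family that promotes organ growth, had 8757 and 8749 in ein2 on ethylene and 3363 and 3122 in ein2 in air, against 21927 and 25586 in wild type on ethylene and 7905 and 7981 in wild type in air. The ein2 arrays on ethylene lay just above the wild-type arrays in air. ARL rose by 1.43 ± 0.12 in ein2 and 1.57 ± 0.12 in wild type, and the 95% interval of the difference was -0.50 to 0.21. EIN3 transcript changed in neither genotype by a call, with a difference of -0.04 ± 0.17 and an interval of -0.41 to 0.33. The F-box gene ETP2, whose product targets EIN2 for degradation, differed by 0.16 ± 0.36, and RTH, a homologue of RTE1, by 0.57 ± 0.23 (adjusted p = 0.215). PDF1.2, a defensin gene known to respond to ethylene with jasmonate, was dim and variable, with 29.1 and 157 in ein2 on ethylene and 111 and 116 in ein2 in air, against 103 and 267 in wild type on ethylene and 37.6 and 58.5 in wild type in air.

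The ein5 response was set beside that of ein2 to show where ein2 differs from the other mutant. The ein2 and ein5 contrasts share the wild-type arrays, so their values are given side by side without a measure of likeness. At the 638 positive probe sets the median difference from wild type was 1.08 in ein2, which their choice fixes, and 0.624 in ein5, and 88 were called in ein5, against 0.431% of all probe sets. At the 216 negative ones the medians were -0.965 and -0.536, and 12 were called in ein5, against 0.101%. SWEET17 differed from wild type by 3.03 ± 0.31 in ein2 and by 1.51 ± 0.31 in ein5, and TBL37 by 2.20 ± 0.16 and 1.76 ± 0.16. The ein2 response of UGT71C1 and that of ein5 differed from wild type by 1.34 ± 0.24 and 1.37 ± 0.24, and those of the plastid genes PWD and AAE16 by -0.94 ± 0.19 and -1.29 ± 0.28 in ein2 and by -0.05 ± 0.19 and 0.08 ± 0.28 in ein5. These 2 had the ein5 values nearest 0 of the 10 plastid genes called negative, and the other 8 had ein5 differences from -0.59 in SBPASE to -0.21 in CFM3A. Tested directly, the ein2 response minus the ein5 response was not called for PWD (adjusted p = 0.0903) or AAE16 (adjusted p = 0.0866).

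Tested directly, the ein2 response minus the ein5 response was called at 12 probe sets (0.0528%), all positive, and at an unadjusted p under 0.05 there were 1523 positive and 843 negative (limma). Of the 12, 8 were among the 638. The 4 with a single gene were AT2G22510, AT3G54580, AT2G16630 and AT3G06750, named for that reason after their values were seen. AT2G22510 had 6562 and 7521 in ein2 on ethylene and 4399 and 4812 in ein2 in air, against 2724 and 2768 in ein5 on ethylene and 5819 and 5369.6 in ein5 in air. In wild type it had 915 and 1199 on ethylene and 4548 and 3439 in air. It thus fell by 1.02 ± 0.15 in ein5, where 0.849% of all probe sets were called lower on ethylene, and fell by 1.90 ± 0.15 in wild type, while its change in ein2 was 0.61 ± 0.15 (adjusted p = 0.136), and the 2 mutant responses differed by 1.63 ± 0.22, adjusted p = 0.0232.

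AT2G16630 and AT3G06750 differed between the mutants by 1.04 ± 0.16 and 0.99 ± 0.16, each at an adjusted p of 0.0487. AT3G54580 had 2569 and 2781 in ein2 on ethylene and 1456 and 1551 in ein2 in air, against 2304 and 2549 in ein5 on ethylene and 4174 and 5996 in ein5 in air. It fell by 1.04 ± 0.20 in ein5, adjusted p = 0.0173, and the ein2 change was 0.82 ± 0.20 (adjusted p = 0.116), a difference between the mutants of 1.86 ± 0.28. With wild type at 2504 and 3986 on ethylene and 2871 and 3262 in air, its ein2 response minus the wild-type response was 0.78 ± 0.28, adjusted p = 0.161, and was not called.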

How the data were processed

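Transcripts were measured on 12 single-colour arrays, which were grouped and numbered by their titles. All 12 titles end in polyA, and this also holds for the arrays behind the values of plastid and mitochondrial genome genes. The deposited table holds an intensity per probe set on a linear scale, and per the labels' protocols the authors used GeneChip Suite 3.2 and GeneSpring 4.2. The division by the median of values above 10 that the series text describes is not seen in the deposited intensities, whose array medians were 922 to 1039. Their array means, taken without the top and bottom 2% of values, were nearly equal at 2480.3 to 2487.2. The deposited intensities thus already had a nearly common scale of another kind. Here each array was divided by its median of values above 10 and multiplied by the mean of the medians (factors 0.949 to 1.07). Before taking log2, 16 was added, which understates changes of dim probe sets.

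In limma 3.58.1 with R 4.3.3, means of 6 groups were fitted over all 12 arrays, with variances moderated along the mean intensity. There were 6 residual and 7.89 prior degrees of freedom, and standard errors had a median of 0.322 for differences of responses and 0.228 for responses. Tests were two-sided. The number of arrays limits the precision. The fit was tested on simulated data.

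Exactly 1 gene was given for 13513 probe sets by the platform annotation, several for 503 and none for 8730, which are unnamed here. A gene table for TAIR10.1 matched 13436 of the single-gene probe sets, of which 11885 carry only a locus number. A gene with several probe sets is given by the brightest. Promoter or protein sequences were not used here.

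The members, gene lists and tests were chosen with earlier results of these data known. Lists were matched on symbols and synonyms, so several are small, and those of 7 names (ethylene biosynthesis, ERF factors, GDSL lipases, lipid transfer proteins, pectin lyases, ribosomal proteins and vascular markers) matched 0 genes. The lists of plastid proteins, plastid and mitochondrial genomes, cell wall genes, glycosyltransferases, auxin genes, seed and cold genes, and the BGLU, SCPL, GST and CYP families were added after the called genes had been seen. Several further lists are not reported here. Genes were named by rule: the 20 largest positive and 15 largest negative called differences with a group mean of at least 500 and array differences that do not overlap, the 8 largest rises called in both genotypes without a called difference, up to 8 genes with an opposite or ein2-only response, up to 3 called members of each list, all listed ethylene genes and, added later, every called gene with a symbol.

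The alternatives were the deposited intensities not rescaled, quantile normalization, offsets of 4 and 64, no variance trend, only the compared groups and array weights. Further ones left out dim probe sets (mean over all 12 arrays under 200), added a replicate block, or left out each array in turn. No shared effect of the replicate number was seen: differences between replicates 1 and 2 correlated across groups at -0.0437 to 0.0734. Such low correlations cannot show whether arrays with the same number were handled together.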

Additional observations from a re-analysis of the deposited data

Results flagged for a closer look

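The test of the difference itself found the 638 probe sets whose ein2 response lay above the wild-type response and the 216 whose ein2 response lay below it. Among the named genes with both responses called in opposite directions, the difference was 2.57 ± 0.32 for AT1G33470, -2.92 ± 0.37 for M10, 1.72 ± 0.23 for AT4G05150, 1.08 ± 0.16 for AT3G06750 and 0.97 ± 0.14 for AT3G61790 (SE from the limma fit). For these 5 genes only the difference was recomputed in the alternatives, not the response of each genotype. In the main fit the ein2 response had an adjusted p of 0.0321 for AT1G33470, 0.0345 for M10 and 0.0041 for AT4G05150 (limma). For AT3G06750 and AT3G61790 it was 0.0348 and 0.048. M10 was the 1 gene of the 5 that ethylene lowered in ein2, and the other 4 rose there.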

How the results depend on the processing

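The settings changed how many probe sets were called more than the direction of what was called. Of the 854 probe sets called in the contrast, 638 positive and 216 negative, the numbers were 243, 198 and 45 without the variance trend and 536, 424 and 112 with only the compared groups fitted. With array weights 131 were negative. With quantile normalization 65.2% of the calls were positive (546 positive and 291 negative), against 74.7%. Leaving out each array in turn gave 332 to 1174 calls in all, 270 to 974 positive and 52 to 321 negative. With the replicate block 642 positive and 209 negative probe sets were called, and 796 of the 854 were among them. The titles tie arrays of different groups by replicate number alone, so the block is not taken as a pairing. Of the 94 called genes that are named, 35 were called in every alternative that could be computed for them, which was 20 for AT4G10440 and 21 for the other genes, and the remainder lost the call in 406 gene-by-setting cases in all. Genes without a call gained one in 13 cases: RTE1 in 4, AT2G39980 and AT5G19890 in 3 each, AT1G49570 in 2 and AT1G19900 in 1. The causes were not tested. Differences turned sign only for genes that were not called. With an offset of 64, XTH26 turned to -0.53 and AT2G22880 to -0.017. With single arrays left out, ETP2 turned sign in 3 cases, EIN3 in 1 and EXPA7 in 4. Over all alternatives the difference ran from -0.11 to 0.43 for ETP2, from -0.21 to 0.13 for EIN3 and from -0.32 to 0.27 for EXPA7. Signal limits the dim genes, since 3.86% to 6.16% of each array's intensities did not exceed the offset.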

Other observations

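The mitochondrial gene matR was called positive but dim, with 439 and 218 in ein2 on ethylene and 39.8 and 59.6 in ein2 in air, against 122 and 81 in wild type on ethylene and 218 and 465 in wild type in air, a difference of 3.86 ± 0.87, adjusted p = 0.0253 (limma). It was the 1 called gene among 16 of the mitochondrial genome, whose median difference was 0.423. The difference was positive for 13 of the 16. At an unadjusted p under 0.05 (limma), 6 of the 16 were positive and 0 negative, against 2326 and 1493 of all 22746 probe sets. Over all genes 2.32% were called positive and 0.779% negative, so that single calls in families of this size are not read as results about the family. Among further gene families, 1 of 22 BGLU genes (BGLU46, 0.84 ± 0.18) was called positive, 1 of 29 SCPL genes (scpl35, -0.60 ± 0.15) negative, and 1 of 14 histone and cell cycle genes (TUA1, an alpha-tubulin gene, 0.83 ± 0.21) positive. These 4 calls were lost with at least 1 array left out, with adjusted p up to 0.177, that of TUA1 without ein2 air 2. GSTU26 was the 1 positive call among 11 GST genes, whose median was 0.228, and GTR1 the 1 among 11 glucosinolate and defence genes, whose median was -0.0139. Of 26 CYP genes, 0 were called (limma). At an unadjusted p under 0.05 there were 3 positive and 2 negative, against 2326 and 1493 of all 22746 probe sets. The root-hair markers EXPA7 and EXPA18 summed to 4225 and 3974.2 in ein2 on ethylene and 3125.6 and 2578.2 in ein2 in air, against 5729.5 and 7273 in wild type on ethylene and 5417.8 and 3972.4 in wild type in air, and neither was called.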
